A study of Mus musculus with 4 samples.

Results

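The Gzmb effector CD8 T cells of B16-F10 mouse melanomas were defined on their own transcripts. A droplet belonged to them when it held at least 300 genes, at most 10% mitochondrial counts, at least 2 counts of Cd8a and Cd8b1 together, at least 2 of the CD3 genes Cd3d, Cd3e and Cd3g together, and at least 10 counts of Gzmb. It had no count of Cd4, Foxp3 or Csf1r, at most 1 of the division genes Mki67 and Top2a, fewer than 5 of Gzmc, Gzmd, Gzme and Gzmf together, and fewer than 3 of Ccl1. These rules were met by 1258 cells, among 6325 cells that passed the CD8 T cell gate, 35411 droplets that passed the gene and mitochondrial filters, and 36694 droplets in all. A count here is a unique molecular identifier (UMI), that is, one captured RNA molecule.

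B16-F10 is a transplantable melanoma line of the mouse. Leukocytes were collected by flow sorting of CD45+ cells, SYTOX Blue marking the dead ones, and each of the 4 groups was sequenced as 1 library of 10x 5′ v2 chemistry made from 6 pooled mice. The control group received IgG intravenously and dilution buffer into the tumour. The CD40 group received an antibody against CD40 into the tumour with IgG intravenously, the PD1 group an antibody against PD1 intravenously with buffer into the tumour, and the combination group both antibodies. Doses were given on day 8 and day 11, and the tumours came out on day 14. Strain and age are not given in the labels. The animals are pooled, so the spread between mice was not measured, no test between groups was possible, and every interval given is a 95% interval that covers counting error only.

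Cytotoxic CD8 T cells kill by releasing granules that hold perforin, which opens the membrane of the target cell, and granzymes, serine proteases that enter through it. Granzyme B, the product of Gzmb, cleaves caspases and other substrates after aspartate and so triggers apoptosis. In tumours, CD8 T cells that carry these granules coexist with less differentiated cells that express TCF1, the product of Tcf7, and long exposure to antigen goes along with inhibitory receptors such as PD1 and TIM3 and with the transcription factor TOX. CD40 is a receptor of antigen-presenting cells, and antibodies that trigger it act on those cells; antibodies against PD1 act on the T cell side.

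Values are given throughout in the order control, CD40, PD1 and combination, and levels are CPM, the UMIs of a gene summed over the Gzmb effector cells of a library divided by all their UMIs and scaled to 1e+06. Cd8a, which the rule used, stood at 977, 1239, 1252 and 1218 CPM. Prf1, which encodes perforin and was not used by the rule, had at least 1 UMI in 100%, 88.5%, 89.1% and 83.7% of the cells. Gzmb was found with at least 10 UMIs in 0.119% to 0.653% of myeloid-gated cells (Csf1r at 2 or more UMIs and no CD3), in at most 1.05% of neutrophil-gated cells (combination) and in at most 0.690% of B-gated cells (PD1). It was common at that level in NK-gated cells (Ncr1 at 2 or more UMIs and no CD3), at 21.7, 58.8, 51.0 and 64.9%. CD8 T-gated cells that the rule left out also carried it. The shares were 61.7, 79.8, 94 and 87.1% of terminal granzyme cells (at least 5 UMIs of Gzmc to Gzmf). Among dividing cells (at least 2 UMIs of Mki67 and Top2a) they were 52.9, 58.1, 77.2 and 69.8%. The Gzmb effector cells held medians of 13099, 12444.5, 13716.5 and 12282 UMIs and 3343, 3326.5, 3508 and 3261 genes, from libraries of 117735875 to 164755549 UMIs. Pairs of libraries shared 94 to 144 droplet barcodes, and 0 or 1 of these belonged to Gzmb effector cells in both.

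Markers of other cells were low in summed level but not even, and some were found in many of the cells. The 10 myeloid markers summed to 368, 326, 305 and 293 CPM, with the macrophage gene Adgre1 at 0 in control and PD1 cells, and 4 B cell markers to 19.9, 27.5, 32.8 and 32.8 CPM. The 5 NK markers summed to 26.5, 64.6, 104 and 138 CPM, with Ncr1, Klrb1c, Klri2 and Klra8 at 0 in control. At least 1 UMI of a myeloid marker was found in 100, 94.9, 94.0 and 95.6% of the cells. For B cell markers this was 21.7, 19.9, 23.9 and 22.1%, and for NK markers 34.8, 20.3, 28.3 and 22.9%. The 4 γδ T cell markers summed to 23.2, 41.1, 15.0 and 19.7 CPM, the 5 dendritic cell markers to at most 1.77 CPM and the 6 melanoma and red cell markers to at most 5.01 CPM. The 4 neutrophil markers (S100a8, S100a9, Csf3r and Retnlg) differed most: 0, 9.33, 29.3 and 347 CPM, with at least 1 UMI in 0, 5.07, 0.543 and 12.8% of the cells. Their part in the results was not tested. List counts between libraries above 0 were recomputed without the cells that held S100a8 or S100a9. So were the ratios between libraries of genes ranked by the rule for named genes, in the comparisons that ranked them. Ratios between libraries of genes named outside that ranking, such as Gzma, Gzmk, Klrd1 and Lilrb4a, were not. A further alternative left out cells with UMIs of other lineages, that is of C1qa, Cd68, Itgam, Cd79a or Ncr1. It kept 16, 200, 130 and 424 Gzmb effector cells.

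Gzmb effector cells numbered 23, 296, 184 and 755. They made up 3.63% (2.32 to 5.40%), 17.0% (15.3 to 18.9%), 18.5% (16.1 to 21.1%) and 25.5% (24.0 to 27.1%) of CD8 T-gated cells. The control library stood lowest, CD40 and PD1 had overlapping intervals, and the combination stood highest. Relative to control, the share was 4.68-fold (3.10 to 7.09) higher with CD40, 5.09-fold (3.34 to 7.77) higher with PD1 and 7.02-fold (4.68 to 10.5) higher with both. With the other antibody already present the differences were smaller: 1.38-fold (1.19 to 1.59) for the combination against PD1 and 1.50-fold (1.33 to 1.69) for the combination against CD40. Since Gzmb was counted per cell, the shares were recomputed after thinning each cell to 5000 UMIs and reapplying the rule. This gave 2.99%, 9.97%, 16.6% and 19.8%, and on that scale PD1 stood above CD40. Thinning lowered the counts of every gene in the rule. Dividing cells went from 32.2, 37.8, 42.4 and 38.2% to 23.4, 27.5, 28.5 and 28.0% of CD8 T-gated cells. The classes thus do not hold the same cells on the 2 scales, and the part of this in the order of PD1 and CD40 was not tested. The Gzmb effector shares on all UMIs were also set on other denominators. Of non-dividing CD8 T-gated cells they were 5.36%, 27.4%, 32.1% and 41.3%, and of all droplets that passed the filters 0.293%, 3.74%, 1.85% and 7.77%. CD8 T-gated cells as a whole were also more frequent among those droplets with CD40, so the last denominator gave larger ratios. The plot of shares by library shows both scales.

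**Figure D1:**
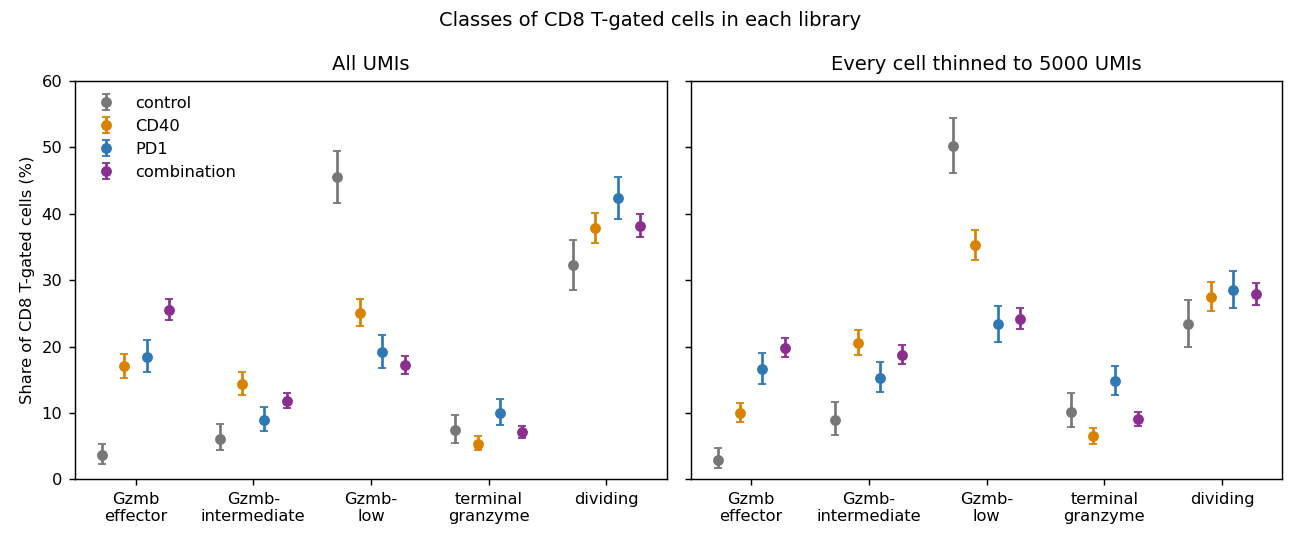
Share of CD8 T-gated cells (percent, vertical axis) in 5 classes for each of the 4 libraries, from all UMIs (left) and with every cell thinned to 5000 UMIs (right), with exact 95% intervals for counting error. Points are shares and bars the intervals; among Gzmb effector cells control was lowest, at 3.63%, and the combination highest, at 25.5%.

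The rule chose cells by Gzmb, so the following comparison with Gzmb-low cells (0 to 2 UMIs of Gzmb, otherwise the same gate; 288, 437, 191 and 508 cells) is a description. Genes at least 2-fold higher made up 5.12, 0.845, 4.62 and 1.85% of those tested, and genes at least 2-fold lower 7.83, 1.31, 4.87 and 1.64%. Gzmb-low cells also held fewer UMIs per cell, with medians of 7638, 9525, 7706 and 9363. Over all genes tested the median log2 ratio of Gzmb effector to Gzmb-low cells was -0.05, 0.02, 0.09 and -0.02.

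Of the granule and killing list, which does not hold Gzmb, 12 of 14, 12 of 15, 12 of 15 and 11 of 15 measured genes were higher in Gzmb effector cells, with median log2 ratios of 1.03, 0.49, 0.94 and 0.61. Of the effector cytokines and chemokines, 5 of 11, 7 of 13, 8 of 13 and 11 of 13 were higher, with medians of -0.51, 0.30, 0.16 and 1.11. Prf1 stood at 715, 757, 1889 and 1608 CPM in Gzmb effector cells and 97.6, 149, 184 and 146 CPM in Gzmb-low cells, log2 ratios of 2.87, 2.35, 3.36 and 3.46. Gzma, a granzyme with trypsin-like specificity, stood at 414, 1151, 546 and 1619.8 CPM beside 18.8, 104, 174 and 236 CPM, log2 ratios of 4.46, 3.47, 1.65 and 2.78; 1 control cell held 55.2% of its UMIs there. Both stood above the Gzmb-low cells in every library, although the gap for Gzma was narrower with PD1 than elsewhere. Ccl3 and Ccl4, which encode inflammatory chemokines, had log2 ratios of 1.95, 3.58, 3.69 and 3.49 and of 1.59, 2.46, 3.31 and 2.78. Ccl5, a chemokine gene of memory and effector T cells, stood at 6698, 8696, 8665 and 11744 CPM beside 2632, 3729.8, 3300.1 and 5433 CPM. Serpinb9, whose product inhibits granzyme B inside the killer cell, stood at 212, 193, 227 and 306 CPM beside 58.4, 68.1, 55.9 and 105 CPM, and the related serpin gene Serpinb6b had log2 ratios of 1.60, 1.51, 1.91 and 1.47. Tnfrsf9, the costimulatory receptor 4-1BB, and Havcr2, the inhibitory receptor TIM3, had log2 ratios of 1.82, 1.50, 2.01 and 1.91 and of 2.73, 1.56, 2.96 and 1.82. Irf8, a transcription factor of effector T cells, had 1.13, 1.23, 1.53 and 1.60, Rgs16, a regulator of G protein signals, 1.62, 1.50, 2.19 and 1.65, and Serpine2, a secreted serpin, 2.36, 2.44, 2.20 and 1.98.

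Genes of naive and memory cells stood on the other side. Tcf7 stood at 3.31, 7.31, 13.5 and 18.4 CPM beside 298, 149.8, 357 and 203 CPM in Gzmb-low cells, and only 1 UMI of it was found in the 23 control cells. Il7r, the receptor chain for the survival cytokine IL-7, stood at 19.9, 36.1, 32.4 and 60.9 CPM beside 350.5, 179.6, 262 and 229.8 CPM. The gap for Il7r was wider in the control and PD1 libraries than in the 2 libraries with CD40 antibody. Slamf6, a receptor of precursor-like cells, had log2 ratios of -3.18, -1.97, -2.53 and -1.68, Bach2, a repressor of effector genes, -2.62, -1.97, -2.69 and -1.76, and Ccr7, the lymph node homing receptor, -2.87, -4.20, -3.79 and -3.16. Of the naive, memory and stem-like list, 0 of 13, 1 of 14, 1 of 14 and 1 of 14 measured genes were higher in Gzmb effector cells, with median log2 ratios of -2.87, -1.97, -3.13 and -1.55. Of the glycolysis and hypoxia list, 13 of 13, 14 of 14, 14 of 14 and 14 of 14 were higher, with median log2 ratios of 1.14, 0.69, 1.20 and 0.91, among them Ldha, lactate dehydrogenase, at 1109.7, 1739.8, 1743 and 2104 CPM beside 535, 1066, 743 and 1034 CPM.

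Gzmb lies on mouse chromosome 14, and Gzma and Gzmk on chromosome 13. Their promoters are shown because Gzmb defines the cells and Gzma and Gzmk are the other granzymes described here. Each line gives the 250 bases upstream of the RefSeq start (GRCm38.p6), 5′ to 3′ in the sense of the gene; capitals mark matches on either strand to TGTGGT (reverse complement ACCACA), the core that Runx factors bind, to TCACAC, read on the other strand as GTGTGA, a half-site of T-box factors, and to TGANTCA, the AP-1 motif.
Gzmb: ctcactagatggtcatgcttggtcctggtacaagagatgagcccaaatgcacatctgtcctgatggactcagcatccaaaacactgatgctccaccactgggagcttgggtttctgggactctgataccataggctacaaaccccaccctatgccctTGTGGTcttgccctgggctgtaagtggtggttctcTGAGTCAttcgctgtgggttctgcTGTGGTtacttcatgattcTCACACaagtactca
Gzma: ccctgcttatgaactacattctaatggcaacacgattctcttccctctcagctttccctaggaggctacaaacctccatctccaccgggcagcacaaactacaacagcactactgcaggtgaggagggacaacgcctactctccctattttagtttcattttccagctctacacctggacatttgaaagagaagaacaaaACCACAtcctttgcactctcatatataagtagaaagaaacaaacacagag
Gzmk: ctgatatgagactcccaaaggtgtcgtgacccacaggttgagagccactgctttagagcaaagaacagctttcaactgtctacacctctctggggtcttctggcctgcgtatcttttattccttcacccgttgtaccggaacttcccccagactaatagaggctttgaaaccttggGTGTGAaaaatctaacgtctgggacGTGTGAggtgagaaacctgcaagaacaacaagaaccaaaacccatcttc
The Gzmb window, chr14:56262335-56262584 on the minus strand, held 2 TGTGGT matches, 1 TGANTCA match and 1 TCACAC match, none overlapping another. The start of Gzmb in the GENCODE annotation, at 56262260, lies downstream of the RefSeq start used here. The Gzma window, chr13:113100982-113101231 on the minus strand, held 1 TGTGGT match, written ACCACA in the gene's sense. The Gzmk window, chr13:113180966-113181215 on the minus strand, held 2 TCACAC matches, written GTGTGA. The GENCODE gene of Gzmk starts at 113225908 and so extends well upstream of this window, while that of Gzma starts at 113100981, next to its window. Among 32851 RefSeq promoter windows of the same length, 14.0% held TGTGGT, 12.3% TCACAC and 6.75% TGANTCA. A match is a stretch of letters, and no binding was measured here.

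Within the set, cells with more Gzmb carried more Prf1, Havcr2 and Tnfrsf9 and less Cxcr3 and Tcf7. The cells were divided by Gzmb UMIs into 10 to 19, 20 to 49 and 50 or more, which held 149, 109 and 38 CD40 cells, 59, 63 and 62 PD1 cells, and 279, 256 and 220 combination cells. In control these were 12, 8 and 3 cells, too few to compare. Prf1 stood at 439.9, 683 and 1951 CPM over the 3 CD40 bins, at 981, 1634 and 2687 CPM over those of PD1 and at 428, 849.5 and 3294 CPM over those of the combination. Havcr2 stood at 184, 252 and 307 CPM, 235, 298 and 332 CPM and 129.6, 206 and 416 CPM over the same bins, and Tnfrsf9 at 308, 584 and 1119, 626, 846 and 1062 and 346, 593 and 1372 CPM. All 3 genes had their highest level in the top bin of each of the 3 libraries. Cxcr3, a receptor for interferon-induced chemokines, ran the other way, at 175, 124 and 76.3 CPM, 78.7, 60.6 and 28.6 CPM and 239, 182 and 75.5 CPM. Tcf7 did so from a low level, at 9.61, 6.65 and 1.70 CPM, 37.1, 11.4 and 0 CPM and 29.5, 19.3 and 7.85 CPM, with no UMI in the top PD1 bin. Gzmk, a granzyme of early effector and memory cells, stood at 458, 456 and 265 CPM, 273, 160.1 and 157 CPM and 666, 630.1 and 382 CPM, lowest in the top bin of each. Median UMIs per cell were also higher in the higher bins, in the combination from 10554 to 11926.5 and 15303, so the bins differ in depth too, whose part was not tested.

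Cells on both sides of the Gzmb threshold were counted to show where the rule cuts. Cells with 10 to 12 Gzmb UMIs numbered 9, 55, 25 and 94, and cells with 7 to 9, just outside, 9, 86, 30 and 126. Prf1 stood at 522, 411, 745 and 211 CPM inside and 475, 267, 837 and 285 CPM outside. Tcf7 stood at 9.85, 10.1, 49.04 and 30.7 CPM inside and 20.2, 16.4, 93.7 and 26.7 CPM outside, all under the level in Gzmb-low cells of the same library.

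CD40 antibody was compared in the absence of PD1 antibody (CD40 against control) and in its presence (combination against PD1); the 2 comparisons share no library. A gene was called when it was at least 2-fold apart with at least 50 CPM and 30 UMIs in the higher library. In CD40 against control 124 of 2450 genes were called (5.06%), 95 higher (3.88%) and 29 lower (1.18%). In combination against PD1 90 of 3168 were called (2.84%), 54 higher (1.7%) and 36 lower (1.14%). Over the genes tested in both, 27 were higher in both, 29.7% of the 91 higher in the first and 71.1% of the 38 higher in the second. Those lower in both numbered 11, 44% of 25 and 68.8% of 16. Control held 23 cells, where 30 UMIs correspond to 99.4 CPM, so its ratios carry the widest intervals. A gene higher in control had to reach that level, whereas a gene higher in an antibody library needed only 50 CPM. In every comparison against control, the counts of genes higher and lower thus rest on unlike minimums and do not compare directly. Below, pairs of log2 ratios for CD40 antibody are given in this order.

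The genes with the largest ratios of the same sign in both comparisons are named here, those higher with CD40 antibody first. Klrg1, an inhibitory lectin-like receptor of differentiated effector cells, stood at 6.62, 88.8, 8.48 and 82.2 CPM. It was low in the libraries without CD40 antibody and nearly level in the 2 libraries with it. The log2 ratio was 3.28 (interval 2.67 to 3.96) for the combination against PD1 and 3.16 (interval 1.88 to 6.80) for CD40 against control, where the 2 control UMIs were set to the floor of 3 for the ratio. Serpinb1a, an inhibitor of neutrophil-type serine proteases, stood at 0, 62.3, 5.78 and 92.4 CPM with no UMI in control, at least 6.27-fold higher with CD40 (floor of 3 UMIs in the control library), and 4.00 (interval 3.27 to 4.84) for the combination against PD1. Cxcr3 stood at 19.9, 141, 52.4 and 161 CPM, log2 ratios 2.83 (interval 1.70 to 4.28) and 1.62 (interval 1.37 to 1.88). Itgb7, the β7 integrin chain, stood at 46.4, 199, 76.7 and 248 CPM, log2 ratios 2.10 (interval 1.35 to 2.98) and 1.69 (interval 1.48 to 1.91). Cxcr3 and Itgb7 were detected in most cells of the 2 libraries with CD40 antibody and in a minority of the others.

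The other genes on the higher side had ratios of similar size. Gpr183, an oxysterol receptor that positions lymphocytes, stood at 13.2, 58.5, 20.04 and 82.1 CPM, and Gpr18, a G protein-coupled receptor of lymphocytes, at 13.2, 67.6, 35.1 and 106 CPM. Emb, a membrane glycoprotein that escorts monocarboxylate transporters, stood at 33.1, 123, 59.3 and 219 CPM, and Furin, a proprotein convertase, at 19.9, 69.6, 17.0 and 103 CPM. Their log2 ratios for CD40 against control and for the combination against PD1 were 2.14 and 2.03 for Gpr183, 2.35 and 1.60 for Gpr18, 1.89 and 1.88 for Emb, and 1.81 and 2.60 for Furin. Emb was also higher with PD1 antibody, both in PD1 against control and in the combination against CD40. Gpr183 and Emb stood lower in Gzmb effector than in Gzmb-low cells of every library, with log2 ratios of -3.05, -1.11, -2.53 and -0.94 and of -2.84, -1.23, -2.38 and -0.94, and that gap was narrower in both libraries with CD40 antibody.

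Gzma and Gzmk, the other granzymes, also followed CD40 antibody. Gzmk stood at 189, 428, 188 and 551 CPM, log2 ratios 1.18 (interval 0.80 to 1.59) and 1.55 (interval 1.42 to 1.69). Gzma stood at 414, 1151, 546 and 1619.8 CPM, log2 ratios 1.47 (interval 1.22 to 1.74) and 1.57 (interval 1.49 to 1.65). One control cell held 55.2% of the control UMIs of Gzma; without the top cell of each library the first ratio was 2.47. The control and PD1 libraries stood together for Gzmk, and the 2 with CD40 antibody above them.

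A second set of genes was lower with CD40 antibody. Tox stood at 739, 348, 452 and 232 CPM, log2 ratios -1.08 (interval -1.29 to -0.87) and -0.96 (interval -1.06 to -0.86), and Klrd1, which encodes CD94 of NK-type receptors, at 1010.3, 487, 902 and 464 CPM, log2 ratios -1.05 (interval -1.23 to -0.87) and -0.96 (interval -1.03 to -0.89). Rbpj, the DNA-binding partner of Notch, stood at 295, 135, 212 and 82.4 CPM. Its log2 ratios were -1.13 (interval -1.46 to -0.79) and -1.36 (interval -1.52 to -1.20); the first was -0.81 with a Gzmb minimum of 20 UMIs. Nrgn, which encodes the calmodulin-binding protein neurogranin, stood at 477, 65.3, 266 and 48.2 CPM, log2 ratios -2.87 (interval -3.17 to -2.56) and -2.46 (interval -2.63 to -2.29). Without the top cell of each library the first ratios of Tox and Klrd1 were -0.94 and -0.91, under 2-fold. For Nrgn, Tox and Klrd1 the 2 libraries with CD40 antibody lay under both without it. Tox was not particular to CD40 antibody, since its ratios for PD1 antibody, given below, were also negative.

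Nrp1, a co-receptor for semaphorins, stood at 152, 50.2, 126 and 37.6 CPM, and Srgap3 at 116, 35.8, 87.9 and 28.1 CPM. Adamts6, a secreted metalloprotease, stood at 116, 27.5, 73.2 and 19.6 CPM, and Chn2, a Rac GTPase-activating protein, at 113, 51.4, 72.1 and 25.5 CPM. The log2 ratios of CD40 against control and of the combination against PD1 were -1.60 and -1.74 for Nrp1, -1.69 and -1.64 for Srgap3, -2.08 and -1.91 for Adamts6, and -1.13 and -1.50 for Chn2. With a Gzmb minimum of 20 UMIs the first ratio of Srgap3 was -0.79. Nrn1, a membrane-anchored protein best known from neurons, stood at 212, 31.5, 66.3 and 31.3 CPM, log2 ratios -2.75 and -1.08, and the second was -0.40 when the cells of each library's leading receptor segment were left out. Ikzf2, the transcription factor Helios, stood at 195, 65.1, 89.4 and 55.6 CPM, log2 ratios -1.59 and -0.69.

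**Figure D2:**
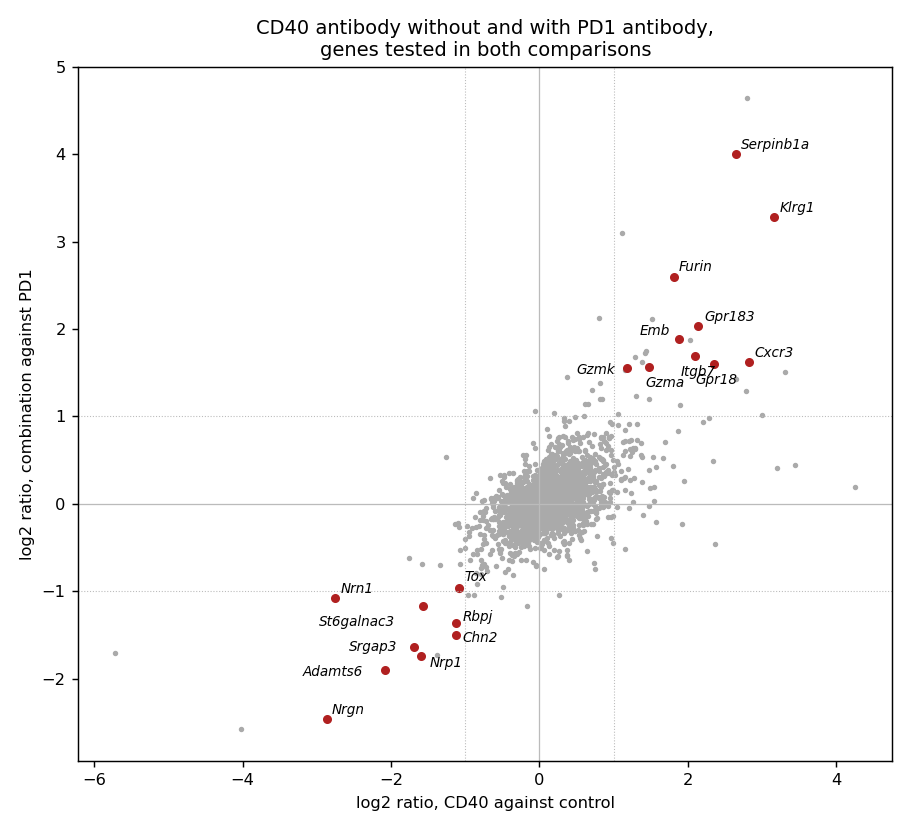
Log2 ratio of CPM in Gzmb effector cells for CD40 against control (horizontal axis) and for the combination against PD1 (vertical axis); each point is 1 of 2406 genes that passed the level filter in both, and named genes are labelled. Klrg1, Cxcr3 and Itgb7 lie at the upper right and Nrgn and Adamts6 at the lower left.

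PD1 antibody was compared in the same way, without CD40 antibody (PD1 against control) and with it (combination against CD40), and pairs of log2 ratios for PD1 antibody follow that order. These comparisons share no library either. In PD1 against control 68 of 2384 genes were called (2.85%), 54 higher (2.27%) and 14 lower (0.587%), and in combination against CD40 35 of 3099 (1.13%), 26 higher (0.839%) and 9 lower (0.29%). Higher in both were 5 genes, 10.4% of the 48 and 50% of the 10 that could be tested in both: Gzmb, Icos, Ifitm1, Nr4a1 and Prf1. Lower in both were 3, 33.3% of 9 and 60% of 5: Dscam, St6galnac3 and Trbv17. Gzmb itself chose the cells, so its level is given as a description.

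Gzmb stood at 1885, 2317, 4007 and 5594 CPM. Every cell had at least 10 UMIs by the rule, and the median cell held 16, 19, 32.5 and 26 UMIs and the highest 105, 380, 351 and 2439. The log2 ratio was 1.09 (interval 0.97 to 1.21) for PD1 against control and 1.27 (interval 1.24 to 1.30) for the combination against CD40, beside 0.30 and 0.48 for CD40 antibody. Prf1, which the rule did not use, stood at 715, 757, 1889 and 1608 CPM, log2 ratios 1.40 (interval 1.20 to 1.60) and 1.09 (interval 1.03 to 1.14), beside 0.08 and -0.23 for CD40 antibody. The second of the PD1 ratios was 0.83 when every cell was given equal weight. For both genes the 2 libraries with PD1 antibody stood above the 2 without on this summed scale. Prf1 rose with Gzmb in the bins described above. In the bin of 10 to 19 Gzmb UMIs the combination did not stand above CD40 for Prf1, and in the higher bins it did. PD1 stood above CD40 in every bin. The part of the Gzmb level in the Prf1 ratios was not tested. The log2 ratio of Gzma for PD1 against control was 0.40, and 1.32 without the top cell of each library.

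Icos, Ctla4 and Nr4a1 stood higher with PD1 antibody in both comparisons. Icos, a costimulatory receptor induced by activation, stood at 53.0, 131, 158 and 263 CPM, log2 ratios 1.58 (interval 0.86 to 2.40) and 1.00 (interval 0.87 to 1.14); the first was 0.82 with a Gzmb minimum of 5 UMIs. Ctla4, an inhibitory receptor induced by activation, stood at 72.9, 152, 155 and 291 CPM, log2 ratios 1.09 (interval 0.47 to 1.78) and 0.93 (interval 0.81 to 1.06), the first 0.70 without cells that held UMIs of other lineages. Both genes were lowest in control, level in the 2 single-antibody libraries and highest in the combination, so they were not particular to PD1 antibody. Nr4a1, an immediate early gene of receptor signalling, stood at 9.94, 49.9, 67.8 and 157 CPM with 3 UMIs in control, log2 ratios 2.77 (interval 1.20 to 5.06) and 1.65 (interval 1.44 to 1.87), beside 2.33 and 1.21 for CD40 antibody. Its relative Nr4a3 stood at 29.8, 49.7, 52.0 and 85.5 CPM; its log2 ratio of PD1 against control was 0.80, and -0.20 with a Gzmb minimum of 5 UMIs. Bcl3, a nuclear IκB protein, stood at 43.1, 75.7, 83.6 and 134 CPM. Oxsr1, a stress-responsive kinase, stood at 59.6, 55.0, 131 and 91.8 CPM, log2 ratios 1.13 and 0.74.

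Few genes were lower with PD1 antibody in both settings. St6galnac3, a sialyltransferase, stood at 374, 127, 121 and 53.8 CPM, log2 ratios -1.63 (interval -1.94 to -1.31) and -1.23 (interval -1.41 to -1.06), and it was lower with CD40 antibody too, at -1.56 and -1.17, the last being -0.74 without cells that held UMIs of other lineages. Dscam, a cell adhesion molecule, stood at 99.4, 52.5, 43.9 and 11.2 CPM, log2 ratios -1.18 (interval -1.77 to -0.55) and -2.23 (interval -2.58 to -1.90), the first -0.66 when cells of the leading receptor segments were left out. Inpp4b, an inositol phosphatase, stood at 407, 228, 222 and 117 CPM, log2 ratios -0.88 and -0.96. Bcl2, the survival factor, stood at 156, 94.3, 88.3 and 64.9 CPM, and Cd226, an activating receptor for the same ligands as TIGIT, at 238, 253, 149.9 and 174 CPM. Bcl2 was highest in control and lowest in the combination, whereas Cd226 was lower in both libraries with PD1 antibody and near control with CD40 alone. Hmgn2, a nucleosome-binding protein, stood at 262, 229, 183 and 158 CPM. Tox and Chn2, described above with CD40 antibody, were also lower with PD1 antibody in both settings. Tox had log2 ratios of -0.71 and -0.59. Chn2 had -1.01 for the combination against CD40, which was -0.86 with a Gzmb minimum of 20 UMIs.

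The combination against control gave the most calls, 225 of 2530 genes (8.89%), 176 higher (6.96%) and 49 lower (1.94%). This comparison shares its libraries with those above. Scaling by the trimmed mean of M values shifted its ratios by 0.12 on the log2 scale and those of the other 4 comparisons by less than 0.1. Ifng, which encodes interferon γ, stood at 202, 1850.2, 989.6 and 1315 CPM, log2 ratio 2.70 (interval 2.34 to 3.09), and its top cell held 27.9%, 31.0%, 24.4% and 5.43% of the UMIs. It was lowest in control on the summed scale, and after thinning each cell to 5000 UMIs it was found in 47.6%, 51.2%, 61.9% and 50% of the cells. Xcl1, a chemokine that draws cross-presenting dendritic cells, stood at 6.62, 190.1, 191 and 218 CPM. It was found in 8.70%, 8.45%, 9.78% and 7.95% of cells, and 1 cell held 43.4% of its UMIs in CD40 and 67.3% in PD1. Its log2 ratios of CD40 against control and PD1 against control, 4.26 and 4.26 with the 2 control UMIs set to 3, were 3.37 and 2.60 without the top cells. Slc16a11, a monocarboxylate transporter family member, stood at 139, 2.52, 30.1 and 1.09 CPM, log2 ratio -7.00 (interval -8.11 to -6.02), and 1 control cell held 54.8% of the control UMIs; without the top cells the ratio was -6.39. Gldc, the glycine decarboxylase, stood at 129, 18.7, 42.0 and 18.0 CPM, log2 ratio -2.85 (interval -3.35 to -2.31).

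**Figure D3:**
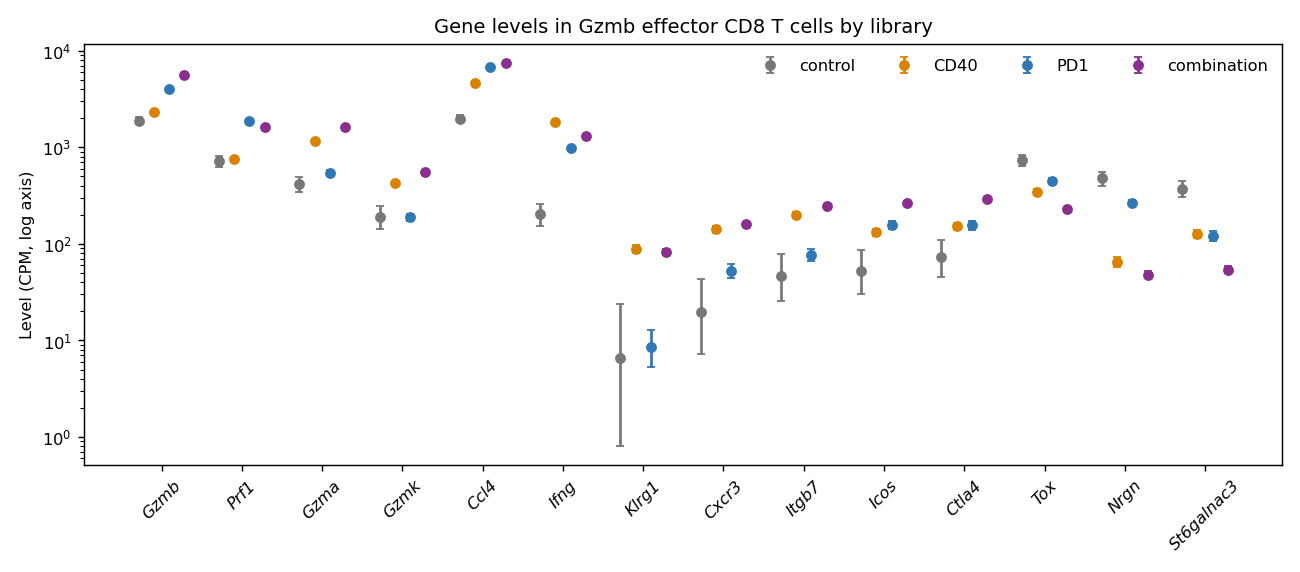
CPM of granule, cytokine and other named genes (logarithmic vertical axis) in the Gzmb effector cells of the 4 libraries, with exact Poisson 95% intervals for counting error. Gzmb and Prf1 were highest in the 2 libraries with PD1 antibody, and Gzma and Gzmk in the 2 with CD40 antibody.

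The fixed lists were read by how many of their measured genes were higher, in the order CD40 against control, combination against PD1, PD1 against control, combination against CD40 and combination against control. Over all genes tested, 1592 of 2450, 1709 of 3168, 1514 of 2384, 1526 of 3099 and 1634 of 2530 were higher, with median log2 ratios of 0.11, 0.03, 0.09, -0.0029 and 0.14. Those genes had passed 50 CPM and 30 UMIs in the higher library. List members needed only 10 UMIs over the 4 libraries, so list counts and this background rest on unlike filters. Of the granule and killing list, 12 of 14, 12 of 15, 11 of 14, 10 of 15 and 13 of 15 were higher, with medians of 0.28, 0.43, 0.14, 0.23 and 0.53. Of the cytokines and chemokines, 9 of 10, 10 of 13, 9 of 11, 9 of 13 and 11 of 12 were higher, with medians of 0.84, 0.41, 1.04, 0.36 and 1.45. At the filter of the background this list gave 7 of 7, 6 of 7, 5 of 5, 4 of 7 and 7 of 7. Ccl4 stood at 1978, 4628, 6779 and 7395 CPM and Ccl3 stood at 1024, 2855, 3463 and 3398 CPM, both lowest in control. Tnf stood at 6.62, 98.1, 29.7 and 84.4 CPM, with 1 cell holding 56.8% of the CD40 UMIs; without the top cells its log2 ratio of CD40 against control was 1.92 in place of 3.30, the 2 control UMIs being set to 3.

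Of the glycolysis and hypoxia genes, 14 of 14, 14 of 14, 11 of 13, 14 of 14 and 14 of 14 were higher, with medians of 0.73, 0.66, 0.56, 0.24 and 0.96. Ldha stood at 1109.7, 1739.8, 1743 and 2104 CPM and Gapdh, another glycolytic enzyme, at 1742, 2553, 1827 and 2952 CPM. Of the interferon γ response genes, 14 of 14, 14 of 14, 12 of 14, 12 of 14 and 12 of 14 were higher, with medians of 0.22, 0.30, 0.29, 0.40 and 0.68. Gbp4, an interferon-induced GTPase, stood at 53.0, 81.7, 88.6 and 124 CPM, and Igtp, a GTPase of the same response, at 89.4, 143, 139.5 and 187 CPM. For both, control was lowest and the combination highest. Scaled by the trimmed mean of M values, the glycolysis counts were the same and the interferon γ counts were 13 for PD1 against control and 14 for the combination against control, and the same in the other 3. Over all alternatives run, in the same order of comparisons, the glycolysis counts were 13 to 14, 14, 10 to 12, 14 and 13 to 14. The interferon γ counts were 10 to 14, 11 to 14, 7 to 13, 12 and 11 to 14; the 7, for PD1 against control, came without cells that held UMIs of other lineages. The type I interferon response list differed: 1 of 10, 3 of 11, 5 of 10, 11 of 11 and 3 of 10 were higher, with medians of -0.66, -0.28, 0.11, 0.71 and -0.05. Rsad2, an antiviral enzyme of that response, stood at 56.3, 8.83, 22.7 and 12.9 CPM, with 1 cell holding 41.2% of the control UMIs, and Ifit1, an RNA-binding antiviral protein, at 43.1, 21.9, 51.3 and 42.3 CPM.

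The other lists had mixed directions. Of the naive, memory and stem-like genes 7 of 9, 10 of 14, 6 of 9, 14 of 14 and 9 of 11 were higher, with medians of 0.86, 0.77, 0.48, 0.75 and 1.51. Klf2, a regulator of recirculation, stood at 62.9, 109.9, 32.4 and 141 CPM within that list, with 1 control cell holding 73.7% of the control UMIs; the log2 ratio of CD40 against control was 0.80, and 2.64 without the top cells, and that of PD1 against control -0.96, and 0.69 without them. Of the DNA replication genes 6 of 15, 3 of 15, 6 of 15, 0 of 15 and 4 of 15 were higher, in cells chosen for few division transcripts; Mcm3, a subunit of the replicative helicase, stood at 99.4, 69.3, 77.1 and 36.8 CPM. The costimulation list gave 6 of 13, 9 of 13, 9 of 13, 12 of 13 and 7 of 13, the effector transcription factors 7 of 13, 8 of 13, 9 of 13, 10 of 13 and 8 of 13 and the exhaustion and receptor-signal factors 6 of 10, 8 of 12, 6 of 9, 8 of 12 and 8 of 11. Homing genes gave 8 of 13, 11 of 15, 7 of 13, 6 of 15 and 7 of 13, NK-type receptors 4 of 10, 7 of 12, 7 of 10, 7 of 12 and 7 of 11, interleukin receptors and SOCS genes 7 of 11, 10 of 12, 6 of 11, 6 of 12 and 8 of 11, and heat shock and immediate early genes 9 of 12, 6 of 13, 10 of 12, 6 of 13 and 8 of 12. The direction of the list counts says nothing of single members: within the exhaustion list Tox was lower and Nr4a1 higher in the combination than in control.

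Pdcd1, Havcr2, Lag3 and Tigit, the inhibitory receptors most often read in exhausted cells, differed by less than 2-fold between any 2 libraries compared. Of their list 5 of 12, 5 of 12, 7 of 12, 7 of 12 and 7 of 12 were higher, with medians of -0.02, -0.18, 0.22, 0.17 and 0.16. Pdcd1, which encodes PD1, stood at 616, 488, 610.4 and 542 CPM, Havcr2 at 229, 228, 296 and 258 CPM and Tigit at 421, 321, 486 and 383 CPM. Lag3, an inhibitory receptor for MHC class II, stood at 487, 513, 795 and 667 CPM. On this summed scale it was somewhat higher in the 2 libraries with PD1 antibody. Detection per cell did not follow that order. With all cells thinned to equal depth, Lag3 was found in 81.0, 75.1, 80.7 and 69.6% of Gzmb effector cells, lowest in the combination. The control interval of 58.1 to 94.6% covered the value of every other library. Lilrb4a, a leukocyte immunoglobulin-like receptor, followed CD40 antibody, at 72.9, 178, 46.6 and 149 CPM, log2 ratios 1.29 (interval 0.68 to 1.97) and 1.68 (interval 1.41 to 1.96) for CD40 antibody.

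Detection per cell was compared after thinning each cell to 5000 UMIs, which left 21, 293, 176 and 746 cells. Pdcd1 was then found in 76.2, 78.5, 82.4 and 78.7% of the cells and Tnfrsf9 in 76.2, 53.6, 82.4 and 61.1%. Tox was found in 85.7, 66.6, 71.0 and 52.0% and Klrd1 in 95.2, 67.9, 86.4 and 69.0%, both highest in control. Gzmk was found in 38.1, 67.9, 38.1 and 73.7% (52.2, 81.4, 53.3 and 86.5% unthinned) and Gzma in 14.3, 33.1, 23.3 and 48.1% (17.4, 40.9, 25.5 and 55.0% unthinned). In myeloid-gated cells, with median UMIs of 14951.5, 19894, 13721.5 and 18376 before thinning, Gzmk was found in 0.0618, 0.301, 0.203 and 0.674% and Gzma in 0.959, 2.92, 2.46 and 4.54%. Klrg1 was found in 0, 26.3, 3.41 and 23.6%, with 0 of the 21 control cells allowing a share of up to 16.1%, and in 0.309, 0.452, 0.497 and 0.745% of myeloid-gated cells. In Gzmb-low cells Gzmk was found in 7.46, 36.5, 12.7 and 50.5% and Gzma in 2.19, 8.997, 6.33 and 20.7%. Klrg1 was found there in 0.439, 6.43, 2.53 and 11.4%. These genes thus had larger shares with CD40 antibody in Gzmb-low cells too. The pattern was not particular to Gzmb effector cells, although in Gzmb-low cells the CD40 and PD1 intervals overlapped for Gzma and Klrg1. Tcf7 was found in 4.76, 2.05, 6.82 and 7.37% of Gzmb effector cells, beside 59.6, 27.2, 67.7 and 39.1% of Gzmb-low cells and 0.433, 0.181, 0.406 and 0.248% of myeloid-gated cells.

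Gzma, Gzmk and other pairs of genes were also read in the same thinned cells. Gzma and Gzmk were found together in 14.3%, 24.9%, 14.2% and 41.3% of thinned cells. Gzma and Klrg1 were found together in 0%, 14.3%, 1.70% and 14.1%, and Havcr2 and Tnfrsf9 in 42.9%, 33.1%, 50.6% and 39.7%. The combination thus stood highest for the first pair and PD1 for the last. For the last pair the control interval of 21.8 to 66.0% covered the value of every other library.

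**Figure D4:**
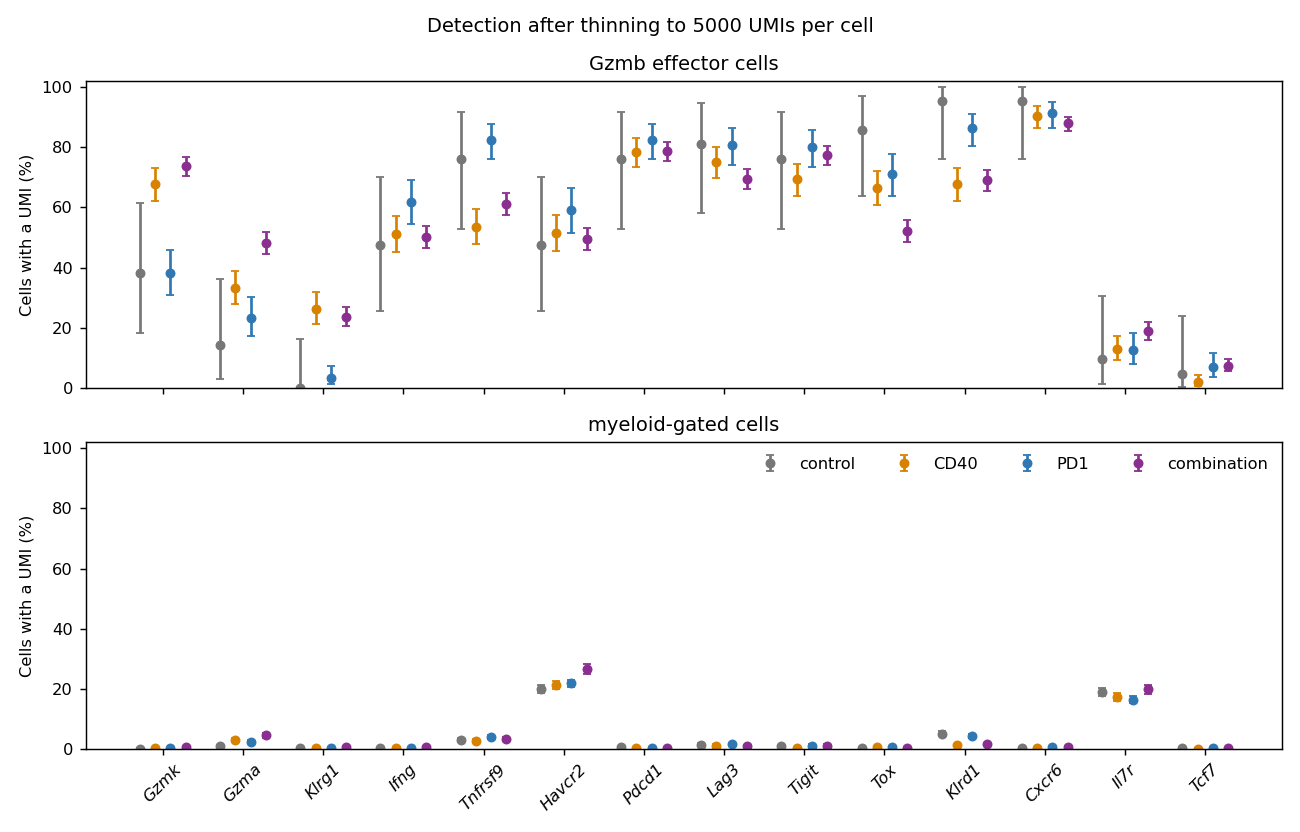
Percent of Gzmb effector cells (upper) and myeloid-gated cells (lower) with at least 1 UMI of each gene after thinning to 5000 UMIs per cell, in the 4 libraries, with exact 95% intervals for counting error. Gzmk and Klrg1 were found in more cells of the 2 libraries with CD40 antibody, and Pdcd1 lay between 76.2% and 82.4% in every library.

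T cell receptor β variable segments were read from the same counts: a cell was assigned to its most abundant Trbv gene at 2 or more UMIs, which assigned 23, 288, 167 and 730 cells. A segment is shared by many clones and each library mixes 6 mice, so segment shares do not count clones. Of the assigned cells 21.7%, 27.8%, 23.4% and 27.7% held 2 segments. The leading segment was Trbv20, level with Trbv23, at 17.4% (4.95 to 38.8%) in control, Trbv19 at 21.2% (16.6 to 26.4%) in CD40, Trbv5 at 24.6% (18.2 to 31.8%) in PD1 and Trbv3 at 22.9% (19.9 to 26.1%) in the combination. Every library was led by another segment. Trbv5 made up 7.47% (4.04 to 12.4%) of the Gzmb-low, 24.5% (20.3 to 29.1%) of the dividing and 23.3% (15.1 to 33.4%) of the terminal granzyme cells (at least 5 UMIs of Gzmc to Gzmf) of the PD1 library. In the combination, Trbv3 made up 20.2% (16.6 to 24.1%) of Gzmb-low cells and Trbv19 19.5% (16.6 to 22.5%) of Gzmb effector cells.

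The effective number of segments, the inverse of the sum of the squared shares, was 8.67, 9.67, 8.81 and 8.16 in Gzmb effector cells and 17.1, 13.7, 15.8 and 9.68 in Gzmb-low cells. It was lower in the effector cells of all 4 libraries, by the narrowest margin in the combination; the 23 control cells limit the number that could be seen there.

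**Figure D5:**
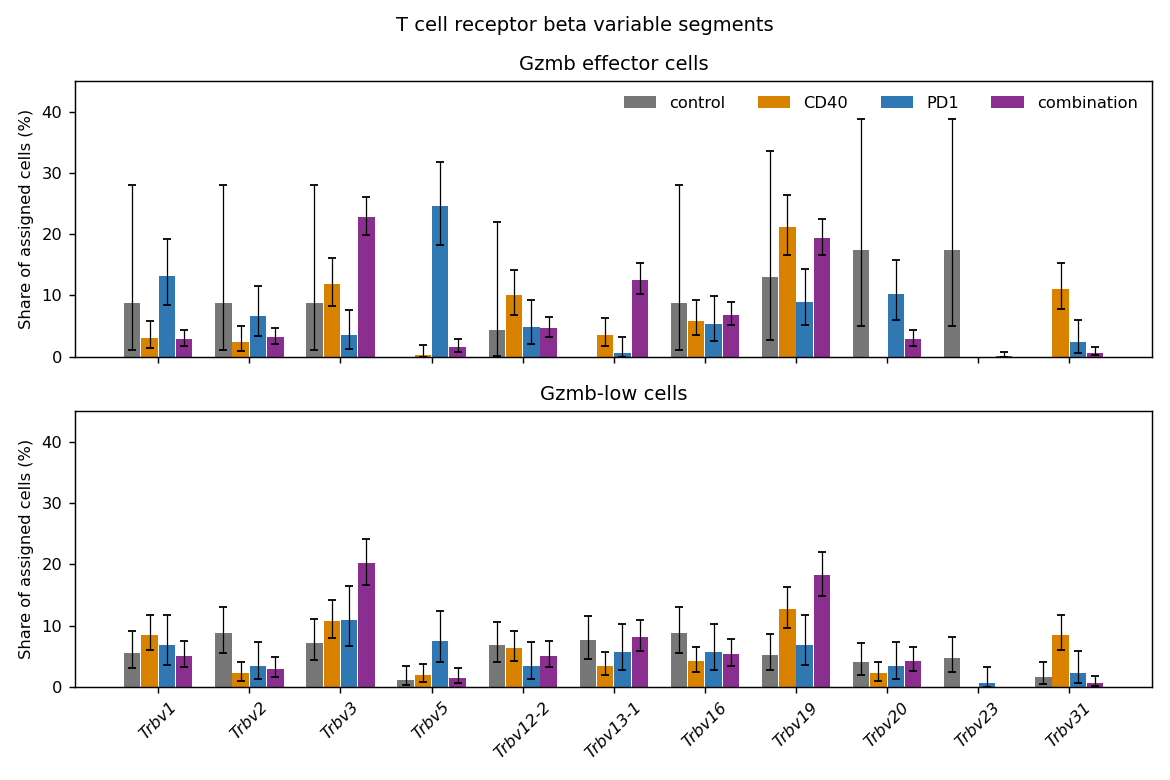
Percent of assigned cells that carried each Trbv segment in Gzmb effector and Gzmb-low cells of the 4 libraries (bars from 0, with exact 95% intervals for counting error). Trbv5 led the Gzmb effector cells of PD1 and Trbv3 those of the combination, at 24.6% and 22.9%.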

How the data were processed

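The deposited files were 10x matrices of raw UMI counts per gene and droplet, made with Cell Ranger 7.0.0 against GRCm38 per the submitters' processing notes; neither notes nor labels state the annotation release, the cell-calling settings or the intron setting; whether the levels of St6galnac3, Dscam and Chn2 depend on the last was not tested. The authors' counts were used as deposited, 1 library per group, with no batch or doublet correction (Scrublet scores over 0.25 were an alternative). Droplets with at least 300 genes and at most 10% mitochondrial UMIs were kept and gated on raw counts. The members, the 22 gene lists and the rule for named genes (largest log2 ratio with the same sign in both comparisons of an antibody, at 50 CPM and 30 UMIs or more; list members may be named) were chosen with earlier results of these data known.

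UMIs were summed over the gated cells of a library and divided by their total. Ratios have exact conditional binomial intervals, levels exact Poisson intervals and shares Clopper-Pearson intervals; counts under 3 were set to 3. Named genes needed at least 0.2 times the highest CPM of myeloid, neutrophil, B or melanoma-gated cells. Calculations used scipy 1.17.1, scanpy 1.11.5, pandas 2.3.3 and numpy 2.4.6 under Python 3.11.15. The ratio script was tested on simulated data.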

Additional observations from a re-analysis of the deposited data

Results flagged for a closer look

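Trbv12-2 lay at least 2-fold apart on opposite sides for PD1 antibody in the 2 backgrounds, past the level minimum in both; genes with smaller ratios of opposite sign are not listed here. The log2 ratio of its CPM in Gzmb effector cells was 1.14 for PD1 against control and -1.69 for the combination against CD40. The difference between these was not tested, since each group is 1 library. The segment was carried by 4.35%, 10.1%, 4.79% and 4.66% of the assigned Gzmb effector cells of the control, CD40, PD1 and combination libraries, 1 cell in control.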

How the results depend on the processing

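No paired analysis was possible because each group is 1 library and the labels give no replicate number; leaving out a library was not possible either. The log2 ratio of the share moved with the denominator: with all kept droplets it was 3.68 for CD40 against control (2.23 of CD8 T-gated cells), 2.07 for the combination against PD1 (0.46), 1.05 for the combination against CD40 (0.58) and 4.73 for the combination against control (2.81). For the combination against CD40 it was also 0.35 with a Gzmb minimum of 5, 0.93 with a minimum of 20 and 0.99 after thinning. No direction of a share reversed. The number of genes called moved from 124 to 215 (Gzmb minimum of 20) and 363 (minimum of 20 CPM) in CD40 against control, from 90 to 210 (20 CPM) in the combination against PD1, from 68 to 145 (Gzmb minimum of 20), 105 (cells with UMIs of other lineages left out) and 315 (20 CPM) in PD1 against control, from 35 to 23 (other lineages) and 73 (20 CPM) in the combination against CD40, and from 225 to 520 (20 CPM) in the combination against control. Without cells that held S100a8 or S100a9, 24 genes in place of 35 were called in the combination against CD40. In the combination against PD1 79 were called in place of 90. The same alternative gave 126 in CD40 against control, 67 in PD1 against control and 210 in the combination against control. The Trbv3 share in the combination, 22.9%, was 18.8% at a Gzmb minimum of 20. A lower CPM minimum admits more genes; the causes of the other shifts were not tested. For genes ranked by the rule for named genes, 57 ratios between libraries were at 2-fold or more in the comparisons that ranked them. Of these 57, 45 stayed there in every alternative run, 12 were under 2-fold in some and none reversed. Ratios of genes named outside that ranking are not part of this count. Of 576 values of ratios against Gzmb-low cells under an alternative, 134 lay further from the value reported than counting error, 49 of 96 at a Gzmb minimum of 20, and none reversed in sign; of 873 list counts, 61 lay over 1.5-fold from the count reported. Leaving out the top cells, the cells of the leading Trbv segments or those with S100a8 or S100a9 was chosen after seeing the data. Depth limits the control values most: 23 cells with 301895 UMIs, where 30 UMIs are 99.4 CPM.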
